A study of Mus musculus with 2 samples.

Results

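Non-coding RNA genes detected in mouse spleen were compared between 2 one-colour microarrays, 1 with wild-type RNA and 1 with RNA labelled Loxl3 knockout. The genes were taken from probes designed against RefSeq non-coding transcripts (accessions starting with NR_) that the scanner software called well above background on at least 1 array. This chose 444 of 1216 such probes, which stand for 379 of 1067 genes or accessions, out of 18792 genes and accessions measured on the arrays. The members were thus selected on the software's detection call, made from the signals of these same arrays. Those signals are given as a description. Genes detected on 1 array alone differ in that call by definition, although their signals can be close. Of the 379 genes, both arrays detected 346, the knockout-labelled array alone 20 and the wild-type array alone 13. The dimmest members were Zim3, with signals of 49.2 and 40.6 (wild type first), and Pitpnm2os1, with 49.4 and 48.2. The brightest genes left outside were A530088E08Rik, at 74.5 and 95.9, and Gm15401, at 56.6 and 82.0.

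The mice of both groups were healthy, untreated males (Loxl3+/+ or Loxl3-/-), and fresh whole spleen was used. Loxl3 encodes a lysyl oxidase, one of the enzymes that crosslink collagen and elastin. Age, strain, the number of animals behind each RNA, and the part of Loxl3 that was deleted are not given in the sources used here. The comparison asks how spleen RNA differs with the Loxl3 genotype. With 1 array per group there was no replicate check and no test, so every difference describes these 2 arrays.

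Many non-coding RNAs are made in the nucleus and act there, for example in the organisation of nuclear bodies, in imprinting or in X inactivation. Others serve as carriers. A small nucleolar RNA (snoRNA) host gene holds snoRNAs in its introns, which are cut out to guide chemical modification of ribosomal RNA, while the spliced host transcript is often degraded by nonsense-mediated decay. A microRNA host is the longer transcript from which short regulatory RNAs are processed. Antisense transcripts and transcribed pseudogenes are named for a protein-coding gene that they overlap or resemble.

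Signals are given with the wild-type array first. A log2 difference below is positive where the knockout-labelled array was higher, after the 75th percentiles of the 2 arrays, at signals of 974 and 1400, were set equal. The value after ± is the scanner software's error per spot carried to that difference. It holds no variation between animals. A gene is represented by its brightest detected probe, and 2-fold means a log2 difference of at least 1 in size. The labelling kit named in the labels primes from poly(A) tails, which most mature small RNAs lack, so for snoRNA and microRNA genes the arrays read long transcripts and not the small products.

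Most snoRNA hosts had a promoter feature that their selection did not use. Known snoRNA hosts often start transcription inside a run of C and T, as ribosomal protein genes do. Promoters were matched by symbol to RefSeq (GRCm38.p6) for 12 of the 13 hosts, and each was searched on the strand of the gene. The search looked for an unbroken run of at least 6 C or T letters that touched the stretch from 10 bases before to 15 bases after the annotated start, and for the letters TATAA between 40 and 15 bases before it. A gene was counted if any of its annotated starts had the feature. The run was found in 11 of 12 hosts (91.7%). It was found in 68 of 194 other non-coding RNA genes with a promoter entry (35.1%) and 9935 of all 27025 genes with one (36.8%). TATAA was found in 4 hosts (33.3%), each of which also had the run. It was found in 8 other non-coding RNA genes (4.12%) and 1141 of all genes with a promoter entry (4.22%). The 2 motifs were searched in stretches that do not overlap. Both are matches of letters, not measured start sites. The lines below show the 60 bases from 40 before to 20 after the annotated start of 8 hosts, with the run in capitals. They include the hosts with the largest differences in each direction, Snhg5 and 2410006H16Rik, and Snhg3, the host in which no such run was found.
Snhg5, chr9:88522878-88522937, minus strand: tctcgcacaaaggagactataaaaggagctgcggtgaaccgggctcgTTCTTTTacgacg
Snhg12, chr4:132308638-132308697, plus strand: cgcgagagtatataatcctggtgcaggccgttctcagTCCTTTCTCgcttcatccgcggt
Snhg7, chr2:26640225-26640284, minus strand: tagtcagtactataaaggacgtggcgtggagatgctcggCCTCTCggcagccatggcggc
Snhg1, chr19:8723447-8723506, plus strand: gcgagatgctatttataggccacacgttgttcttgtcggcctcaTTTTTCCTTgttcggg
Snhg10, chr12:105032260-105032319, minus strand: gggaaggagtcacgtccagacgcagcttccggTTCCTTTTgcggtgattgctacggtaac
Snhg16, chr11:116671620-116671679, plus strand: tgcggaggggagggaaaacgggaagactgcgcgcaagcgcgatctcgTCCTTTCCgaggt
2410006H16Rik, chr11:62602837-62602896, plus strand: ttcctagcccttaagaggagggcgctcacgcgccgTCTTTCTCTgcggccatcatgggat
Snhg3, chr4:132353667-132353726, minus strand: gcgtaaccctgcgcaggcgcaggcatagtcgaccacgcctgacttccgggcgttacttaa

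MicroRNA genes lay inside 10 members by RefSeq position. The mature sequences below, from RefSeq (GRCm38.p6), belong to hosts described further on and have the seed, bases 2 to 8, in capitals. The pair in Dleu2, miR-15a-5p and miR-16-5p, shares the seed AGCAGCA. Only Mir92-1 of the miR-17 to miR-92 cluster fell inside the RefSeq span of Mir17hg.
miR-15a-5p, in Dleu2: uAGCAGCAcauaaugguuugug
miR-16-5p, in Dleu2: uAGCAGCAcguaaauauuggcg
miR-92a-3p, in Mir17hg: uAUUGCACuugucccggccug
miR-223-3p, in F630028O10Rik: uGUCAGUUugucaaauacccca
miR-22-3p, in Mir22hg: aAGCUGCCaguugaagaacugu
miR-433-3p, in 6430411K18Rik: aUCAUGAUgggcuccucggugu

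Non-coding RNA genes passed 2-fold more often in the lower than in the higher direction on the knockout-labelled array. Of the 379, 19 (5.01%) were at least 2-fold lower, where 2.72% of all 18792 genes and accessions were, and 6 (1.58%) were at least 2-fold higher, where 3.13% were. With genes above background on 1 array alone entered at their bounds, 16 were lower and 5 higher, against a background of 2.38% and 2.59%. Such a bound divides the bright array's scaled signal by the dim array's, or by the lowest signal that was called above background there if that is greater. Normexp background correction left 9 lower (2.37%) and 4 higher (1.06%), where it left 1.36% of named genes lower and 1.1% higher. The median log2 difference over the members was −0.15, also with bounds, and −0.10 over all genes and accessions. Below 0 were 243 members (64.1%), against 59.4% of all genes and accessions. Of the members, 269 (71.0%) lay within 0.5 of 0, against 74.3%. A difference of more than 2 times its own software error was seen for 102 members (26.9%), against 29.4% of all genes and accessions, and the median error was 0.23. The direction moved with brightness. Among the 3429 named genes of lowest mean signal the median was 0.08, and over the 202 members in that range it was −0.06. Among the 3429 of highest signal it was −0.26, and over 50 members −0.40. In each of 4 such bands of signal the members' median was below that of the named genes.

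**Figure D1:**
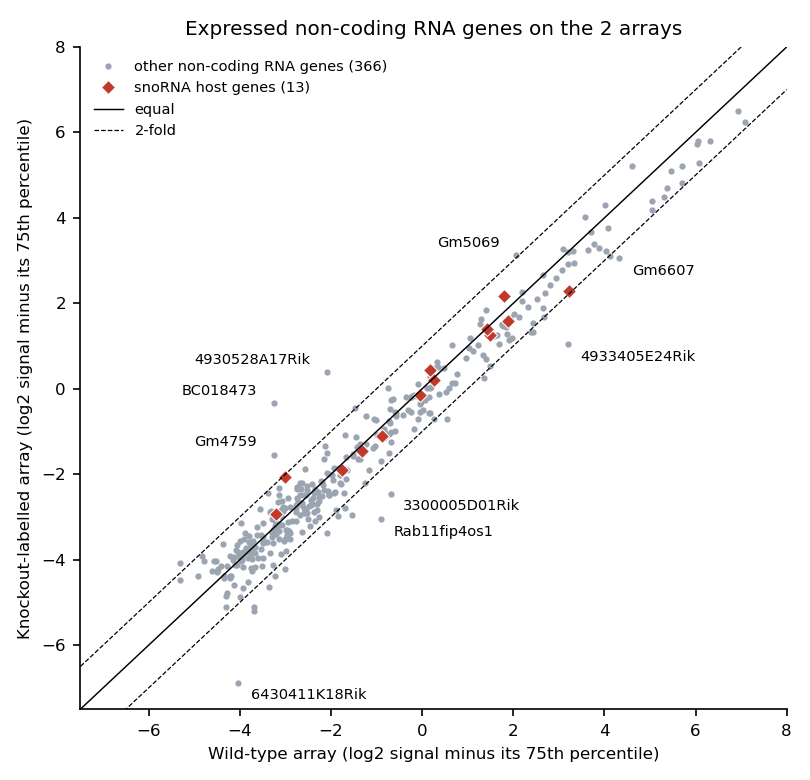
Scaled log2 signal (log2 signal minus the array's 75th percentile) of 379 expressed non-coding RNA genes on the wild-type array (x axis) and the knockout-labelled array (y axis), 1 point per gene, with the 13 snoRNA hosts as diamonds. The solid line is equality and the dashed lines are 2-fold; all 13 hosts lie between the dashed lines, while BC018473, 4930528A17Rik and Gm4759 lie above and 4933405E24Rik, Rab11fip4os1 and 3300005D01Rik below.

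The arrays also differed in cell type markers, and these values stand beside every result here. The 21 measured genes of pancreas acinar cells were all past 2-fold in the higher direction. Their median was 3.73, and their summed signals were 21089 and 289246. Of 17 neutrophil and precursor genes 14 were at least 2-fold lower (median −1.96, summed signal 215636 and 88016), as were 7 of 10 megakaryocyte and platelet genes (median −1.49) and 4 of 10 erythroid genes (median −0.75). B cell, T cell and red pulp macrophage genes, which mark spleen, were all detected, with medians of 0.21, −0.15 and −0.05 over 10 genes each, and the B cell gene Fcer2a was past 2-fold at 1.13. Of 16 proliferation genes 15 were below 0, with a median of −0.46, where 59.4% of all genes and accessions were below 0. The single Loxl3 probe gave signals of 117 and 125, a log2 difference of −0.43 ± 0.29, so it was no firm check of the label. The part of these markers' cells, or of proliferation, in the non-coding RNA differences was not tested. In whole tissue, fewer cells of a type and less RNA per cell cannot be told apart.

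The snoRNA hosts as a group stayed close to the median of all genes. Their median was −0.10, and 9 of 13 were below 0, against 59.4% of all genes and accessions. Within 0.5 of 0 were 11 (84.6%, against 74.3%). None passed 2-fold, where 5.85% of all genes and accessions did in either direction. Scaling on the probes that both arrays detected moved the median to 0.05. The other 366 members had a median of −0.16, and the 218 of them within the hosts' range of signal had −0.19. The interquartile range of the hosts was 0.48, against 0.51 for other lncRNAs and 0.53 for all named genes. 2410006H16Rik, which RefSeq places around Snord49a, Snord49b and Snord65, had the lowest value, with signals of 9076 and 6783 and a difference of −0.94 ± 0.20. Snhg5 had the highest, with signals of 121 and 334 and a difference of 0.94 ± 0.25. Both lay just inside 2-fold, and each passed it under another scaling, at −1.04 for 2410006H16Rik and 1.08 for Snhg5.

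The other hosts lay between these ends. Snhg12, which holds Snora16a, Snora44, Snora61 and Snord99, had signals of 3409 and 6318 and was at 0.37 ± 0.20. Snhg6, the host of Snord87, had 1096 and 1902 and was at 0.27 ± 0.21. Snhg17 was dim, at 106 and 182, and its difference of 0.27 ± 0.28 was smaller than its error. These, with Snhg5, were the 4 hosts above 0. Snhg3, the host of Snora73a and Snora73b, had signals of 3594 and 4231 and was at −0.29 ± 0.20. 1110038B12Rik, the host of Snord52, had 2739 and 3352 and was at −0.23 ± 0.20. Snhg7, with Snora17 and Snora43, had 527 and 655 and was at −0.21 ± 0.21. In each of these the raw signal was higher on the knockout-labelled array by less than the arrays' 75th percentiles differed, which gave the negative sign. The remaining 5 lay within their error of 0. They were Snhg10, the host of Scarna13 (391 and 506, −0.15 ± 0.22), Snhg1 (287 and 372, −0.15 ± 0.23), Dancr (936 and 1254, −0.10 ± 0.21), Snhg18 (1168 and 1607, −0.06 ± 0.20) and Snhg16 (2617 and 3699, −0.02 ± 0.20). The second probe of Snhg16, the host of Snord1a, Snord1b and Snord1c, was at −0.11. In the order of differences, neighbours from Snhg3 to Snhg12 differed by less than their combined software error. 2410006H16Rik stood apart from Snhg3 by 0.66 and Snhg5 from Snhg12 by 0.57, against combined errors of 0.29 and 0.33.

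**Figure D2:**
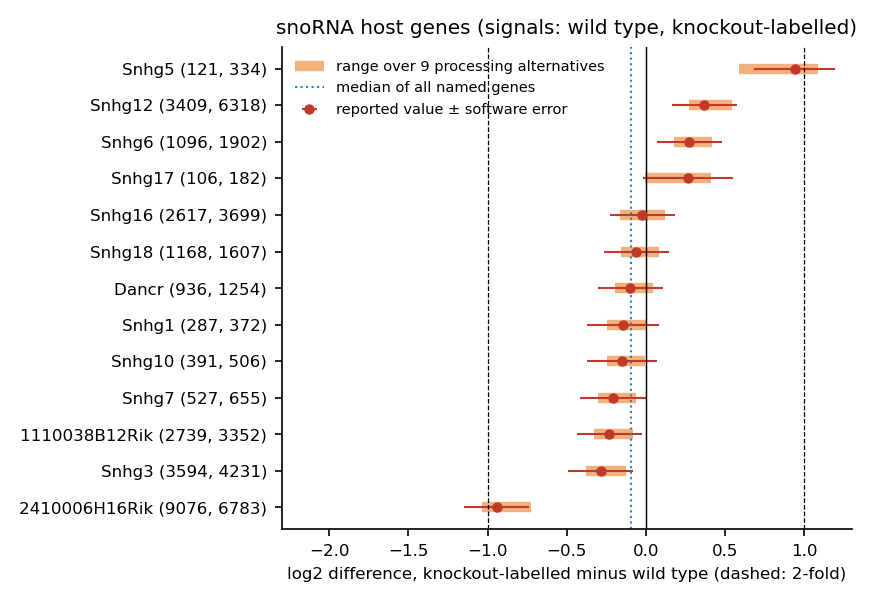
Log2 difference (knockout-labelled minus wild type, x axis) of the 13 snoRNA hosts, with each host's signals on the wild-type and the knockout-labelled array in brackets. Points are the reported values with the software error, thick bars the range over 9 processing alternatives, dashed lines 2-fold and the dotted line the median of all named genes; 2410006H16Rik and Snhg5 lie at the ends and the rest between −0.29 and 0.37.

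Genes of the same pathway did not share 1 direction. Over all genes and accessions 59.4% were below 0, and the median was −0.26 among the 3429 named genes of highest signal. Of 18 measured proteins that assemble with box C/D and box H/ACA snoRNAs, 15 were below 0 and none passed 2-fold, with a median of −0.31. Farthest from 0 were Gar1, a core H/ACA protein, at −0.58 ± 0.20, Rpap3, an assembly cofactor, at −0.52 ± 0.20, and Znhit6, an assembly factor of box C/D particles, at −0.50 ± 0.20. Of 40 protein-coding hosts of snoRNAs, mostly ribosomal protein and translation genes, 32 were below 0, with a median of −0.44. That median was not stable, at 0.04 after quantile normalization. Rpl4 passed 2-fold, with signals of 61389 and 32984 and a difference of −1.42 ± 0.20. Gnl3, a nucleolar GTPase, was at 0.80 ± 0.21, and the probes of Rps3 gave −0.79 ± 0.20 for the brighter and −0.14 for the dimmer. Of 15 measured nonsense-mediated decay factors, 9 were above 0 and none passed 2-fold, with a median of 0.07 that turned to −0.03 with normexp and under median scaling. Among them Upf3b was at −0.46 ± 0.20 and the kinase gene Smg1 at 0.45 ± 0.20.

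The 10 microRNA hosts had a median of −0.05, with 5 above and 5 below 0. Mir17hg, the host of the miR-17 to miR-92 cluster known for its part in lymphocyte growth, had signals of 3483 and 3796 and was at −0.40 ± 0.20. Dleu2, the host of miR-15a and miR-16-1, had 283 and 296 and was at −0.46 ± 0.22. F630028O10Rik, whose span holds Mir223, a microRNA of the myeloid lineage, had 184 and 236 and was at −0.17 ± 0.25. This difference was smaller than its error, and its relation to the neutrophil genes was not tested. Mir22hg was at 0.14 ± 0.29 and Ftx, a regulator of Xist with Mir374b and Mir421 in its span, at 0.11 ± 0.37, both from dim probes with signals of 67.1 to 164. 6430411K18Rik, chosen here after its values were seen, had the lowest measured difference of all members. Its signals were 59.2 and 11.9, the second not well above background, which gives a bound of 1.54-fold lower. It carries Mir433 in the imprinted Dlk1-Dio3 region. In the same region Mirg, a host of 10 microRNA genes, had signals of 100.1 and 80.4 and was at −0.84 ± 0.32, whereas Meg3 had 381 and 574 and was at 0.07 ± 0.21 with 1 probe and −0.25 with the other.

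The 6 measured RNAs known from imprinting and X inactivation lay between −0.84 and 0.11. Kcnq1ot1, which silences its imprinted cluster, had signals of 1667 and 1775 and was at −0.43 ± 0.20, with a second probe also at −0.43. Peg13 was at −0.38 ± 0.20 and Airn, the antisense RNA of Igf2r, at −0.08 ± 0.21. Xist was not well above background with either of its probes, at 9.53 and 13.0 for one and 10.9 and 16.3 for the other, and is therefore no member. Other lncRNAs of known role differed among themselves. Malat1, a component of nuclear speckles, had signals of 2566 and 2268 and was at −0.70 ± 0.20. Neat1, the scaffold of paraspeckles, had 8901 and 12796 and was at 0.00 ± 0.20, although quantile normalization moved it to 0.22. Norad, a sponge of Pumilio proteins, was above 0 with each of 4 probes, from 0.09 to 0.77, with its brightest at 0.33 ± 0.20. Tug1 was above 0 with each of 3 probes, from 0.20 to 0.95.

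LncRNAs described in immune cells and stress lay between −0.74 and 0.53 over 11 measured genes. Below 0 were 7, against 59.4% of all genes and accessions. Mirt2, a lipopolysaccharide-induced RNA of macrophages, had signals of 436 and 375 and was at −0.74 ± 0.21. Mirt1 had 2925 and 3271 and was at −0.36 ± 0.20, with a second probe at −0.20. Pvt1, the neighbour of Myc, had 948 and 955 and was at −0.51 ± 0.21 with 1 probe and −0.08 with the other. Nron, named as a repressor of NFAT, had the highest value of the list, with signals of 218 and 451 and a difference of 0.53 ± 0.22. Morrbid, which controls the lifespan of short-lived myeloid cells, was near the detection limit on both arrays, at 50.1 and 50.7, and only the first of these was called above background. Its bound was 1.31-fold lower, a log2 difference of −0.38 that is smaller than its error of 0.45. With raw signals this close, the negative sign came from the scaling. Redrum, an erythroid lncRNA chosen here after its values were seen, had signals of 264 and 197 and was at −0.95 ± 0.24, beside the erythroid median of −0.75.

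The structural RNAs had the lowest median of any class, −0.46, with 9 of 10 below 0, against 59.4% of all genes and accessions. Terc, the RNA template of telomerase, was the single member of the class past 2-fold, with signals of 5248 and 3532 and a difference of −1.09 ± 0.20. It passed in only 4 of 9 processing alternatives, with −0.92 as its smallest value. Rn4.5s, the brightest member on the wild-type array, had 132996 and 105544 and was at −0.86 ± 0.20. The U3 gene Rnu3b1 was at −0.58 ± 0.20, the minor spliceosome RNA Rnu12 at −0.45 ± 0.20 and Rmrp, the RNA of RNase MRP, at −0.30 ± 0.21. The snoRNA Snora47 had signals of 130 and 135 and was at −0.46 ± 0.33. Snora74a passed the detection call in wild type only, and its bound was 1.67-fold lower. Rn28s1, a ribosomal RNA, was the exception above 0, with signals of 23742 and 51990 and a difference of 0.61 ± 0.20. Since these RNAs largely lack poly(A) tails, what share of each was labelled is not known.

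**Figure D3:**
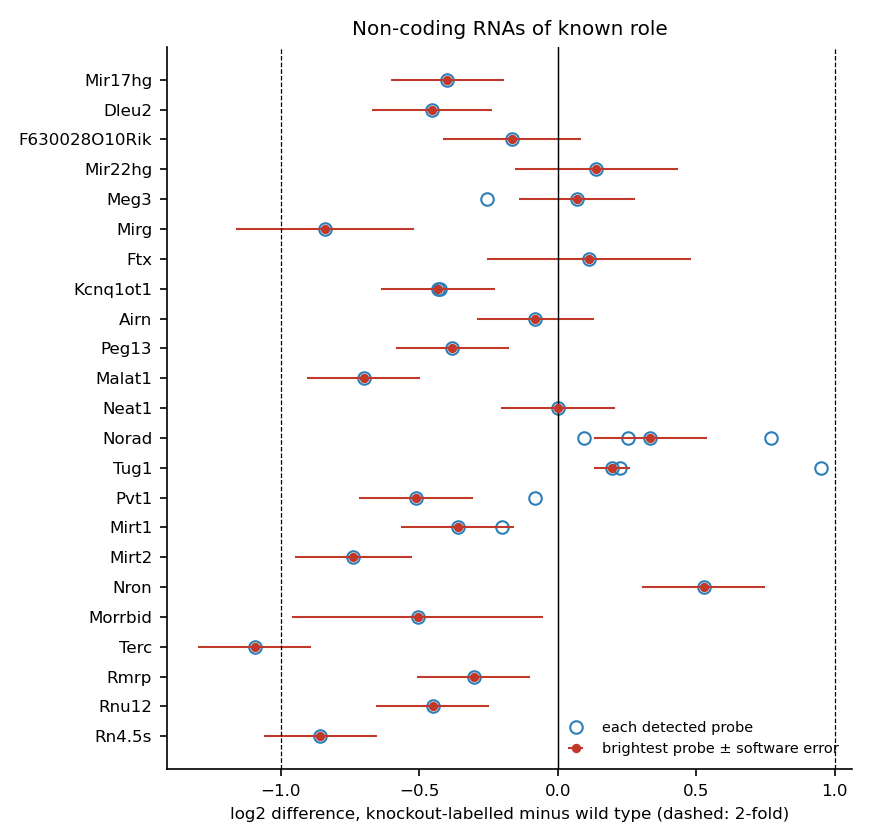
Log2 difference (knockout-labelled minus wild type, x axis) of 23 non-coding RNAs of known role. Filled points are the brightest probe with its software error, open circles each detected probe, and dashed lines 2-fold; Terc at −1.09, which passed 2-fold in 4 of 9 processing alternatives, is the 1 point past a dashed line, and probes of Norad and Tug1 spread up to 0.77 and 0.95.

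The largest differences were in lncRNAs with little known function. BC018473 was highest, with signals of 102 and 1111 and a difference of 2.92 ± 0.25, or 7.57-fold. 4930528A17Rik followed, with 228 and 1825, a difference of 2.48 ± 0.21 (5.57-fold). BC037032 had 349 and 1025 and was at 1.03 ± 0.21. BC037032 passed 2-fold in 5 of 9 processing alternatives, with 0.94 as its smallest value, while BC018473 and 4930528A17Rik passed in all 9. In the lower direction 4933405E24Rik had signals of 8894 and 2884 and a difference of −2.15 ± 0.20, or 4.43-fold. Rab11fip4os1 had 522 and 169 and was also at −2.15, with an error of 0.23. 3300005D01Rik, with 602 and 255, was at −1.76 ± 0.22. Another 5 ran from 4930431P03Rik at −1.41 ± 0.23 to Gm10536 at −1.15 ± 0.24, with 9330179D12Rik, 2610035D17Rik (signals of 1418 and 859) and Gm10516 between them. Of these, 9330179D12Rik, Gm10516 and Gm10536 fell short of 2-fold with normexp, at −0.89, −0.74 and −0.85. Among genes that only the wild-type array detected, the bounds were 2.23-fold lower for 4930562F07Rik, 1.98-fold for 1700047M11Rik, 1.96-fold for 1700042G15Rik and 1.57-fold for 1700081H04Rik. Such bounds hold for the scaling used and are not minima. Over the processing alternatives the smallest differences of 4930562F07Rik, 1700047M11Rik and 1700042G15Rik were −0.64, −0.64 and −0.68. Among genes that only the knockout-labelled array detected, the bounds were 1.66-fold higher for 1810034E14Rik, 1.55-fold for an unnamed accession and 1.42-fold for Phxr4. For Gm20611 and Gm10789 the bounds were 1.41-fold. For 4930562F07Rik, 1700081H04Rik, 1810034E14Rik and Gm10789 the bound is the measured difference itself, with errors of 0.51, 0.44, 0.43 and 0.47. 1810019D21Rik had a measured value of 1.23 but a bound of only 1.37-fold.

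The named members at 2-fold were also set beside the nearest protein-coding gene on each side, by midpoint in RefSeq. Non-coding genes can lie between them. Of these 24 members, 7 are transcribed pseudogenes and 1 is the structural RNA Terc. Of their 48 such neighbours 36 were measured, and 17 had the sign of the member. Past 2-fold were 3 neighbours (8.33%, against 5.85% of all genes and accessions). They were Dio3 for 6430411K18Rik (−1.14 ± 0.47), Tnn for 4930562F07Rik (1.31 ± 0.21) and St6galnac2 for BC018473 (1.08 ± 0.07). On its other side BC018473 has St6galnac1, at −0.95 ± 0.20. P4ha2, such a neighbour of 4933405E24Rik, was at 0.04 ± 0.21. Usp45 and Pnisr, on either side of 4930528A17Rik, were at −0.32 ± 0.20 and −0.25 ± 0.20.

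**Figure D4:**
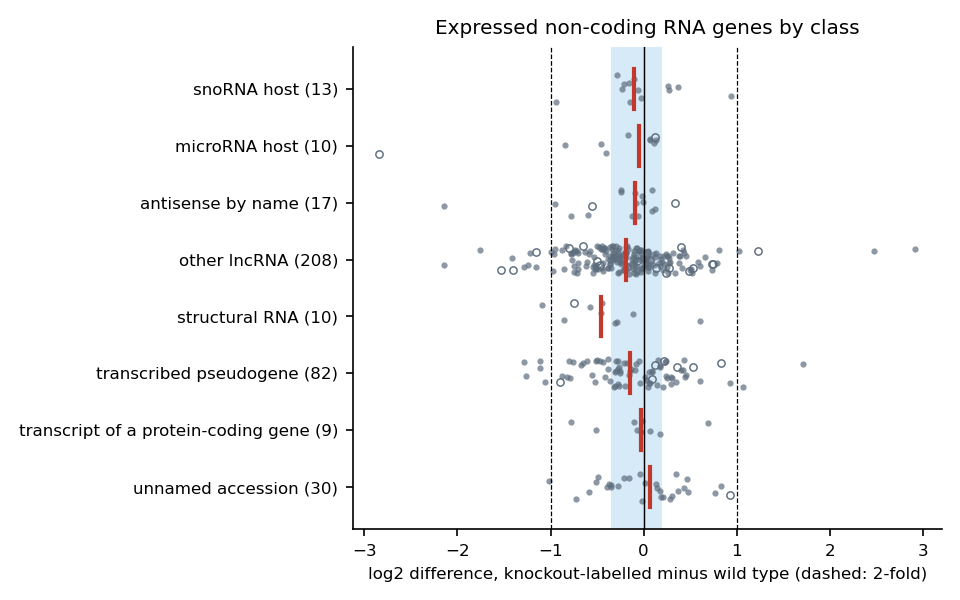
Log2 difference (knockout-labelled minus wild type, x axis) of each of the 379 expressed non-coding RNA genes by class, with the number of genes in brackets. Filled points were above background on both arrays and open points on 1, vertical bars are class medians (from −0.46 for structural RNA to 0.07 for unnamed accessions), the shaded band is the middle 50% of all named genes, and dashed lines are 2-fold.

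Of 16 antisense RNAs whose sense gene was measured, 7 had the sign of that gene. Across these pairs Pearson's r was 0.06 and Spearman's rho 0.03, as a description of 2 arrays. Rab11fip4os1 was at −2.15 ± 0.23 while Rab11fip4 had signals of 248 and 311 and was at −0.20 ± 0.23. Arhgap33os was at −0.78 ± 0.20, with signals of 3820 and 3190, while the dim Arhgap33 was at 0.43 ± 0.38. Sp3os, antisense to a zinc finger factor gene, was at −0.60 ± 0.20 and Sp3 at 0.10 ± 0.20. Fam219aos and Fam219a were both lower, at −0.96 ± 0.23 and −0.70 ± 0.20. None of the 16 sense genes passed 2-fold. Over the class of 17 antisense RNAs the median was −0.09.

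Transcribed pseudogenes had a median of −0.14 over 82 genes, with 2 at least 2-fold higher (2.44%, against 3.13% of all genes and accessions) and 5 lower (6.10%, against 2.72%). Gm4759 had signals of 102 and 481 and was at 1.72 ± 0.28. The nearest protein-coding gene before it, the interferon-inducible GTPase gene Gvin1, was at −0.43 ± 0.20. Gm5069 had 4075 and 12248 and was at 1.06 ± 0.20, but its 3 probes ran from 0.06 to 1.06, and their median of 0.54 did not pass 2-fold. Lower were Btnl5-ps (−1.29 ± 0.38), Gm6607 (19582 and 11704, −1.27 ± 0.20), 2610005L07Rik (−1.11 ± 0.23), Rps4l, a relative of the ribosomal protein gene Rps4x (2509 and 1670, −1.11 ± 0.20) and Zfp133-ps (−1.06 ± 0.20). Gm6607 was at −0.98 once a trend of the difference on signal was removed, and with normexp Btnl5-ps was at −0.81, 2610005L07Rik at −0.86 and Rps4l at −0.99. For 12 pseudogenes named for a measured parent, 3 had its sign, with a Pearson's r of −0.39 and a Spearman's rho of −0.23 across pairs. These counts rest on the brightest probe of each gene. Gpr137b-ps was at −0.26 ± 0.20 with its brighter probe but at 0.72 with the other, and Gpr137b was at 0.67 ± 0.20. Hmga2-ps1 was at 0.24 ± 0.21 and Hmga2 at −0.74 ± 0.23. A probe of a pseudogene can also capture RNA of its parent, so levels of such pairs are uncertain. The brightest probes of the brightest pseudogenes, Gm12070 (119540 and 126822), Gm15772, Gm5523 and Gm6548, were between −0.50 and −0.25. Another probe of Gm12070 was at 0.37. Of these 4 all but Gm15772 turned positive after quantile normalization.

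**Figure D5:**
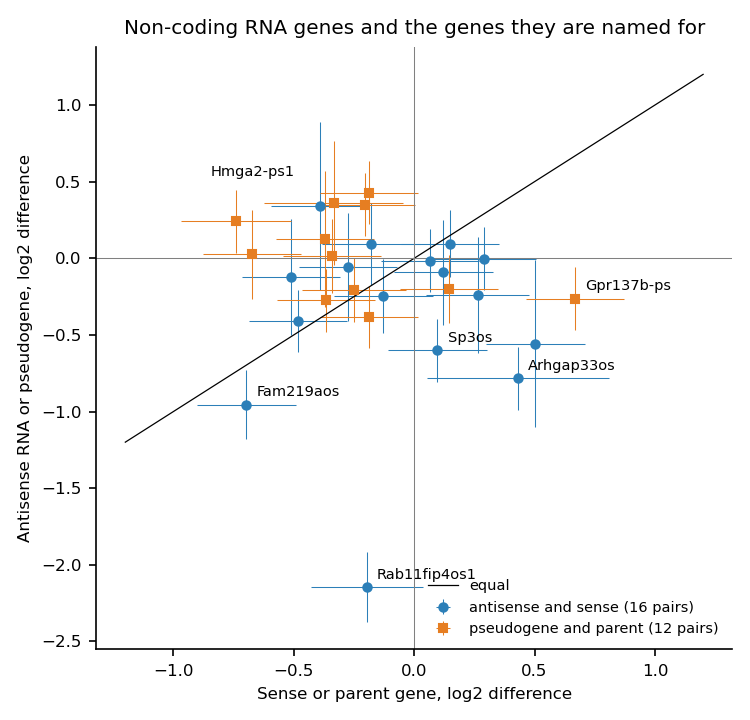
Log2 difference (knockout-labelled minus wild type) of 16 antisense RNAs and 12 pseudogenes (y axis) against that of the gene each is named for (x axis), with software errors as bars and the line of equality. Rab11fip4os1 lies at −2.15 while its sense gene is at −0.20, and 7 of 16 antisense pairs and 3 of 12 pseudogene pairs share a sign.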

How the data were processed

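RNA of 2 spleens or spleen pools, 1 per genotype in the labels, was hybridised to 1-colour arrays. Each deposited scanner file gives intensity on a linear scale for every spot, made with Feature Extraction 11.0.1.1 (protocol GE1_1100_Jul11, probe positions on mm9), per the file headers. The processed signal in them is background-corrected by that software. The value table that the authors deposited holds log2 values with a median of 6.71 in both columns, as quantile normalization would give; its steps are read from its values.

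Control spots and spots with an outlier flag (110 and 132) were left out, the log2 signals of a probe's spots were averaged, and each array's 75th percentile was subtracted. Accessions were named through RefSeq (GRCm38.p6), which matched 1137 of 1216 non-coding probes; coordinates printed belong to that assembly's sequences. A snoRNA host was a gene of a written list or an lncRNA with a curated snoRNA inside it; the table gives no strand. Members, lists and the rule for named genes were chosen with earlier results of these data known. Named were all snoRNA hosts, up to 12 of the largest differences in each direction among other members past 2-fold, detected on both arrays and with all probes of 1 sign (12 lower and 5 higher), the 6 largest bounds in each direction, members of the lists on known lncRNAs, the 5 brightest members and the 3 genes farthest from 0 in each pathway list. A gene that this rule names is not reported here.

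With 1 array per group and 0 residual degrees of freedom no p-value was computed. Calculations were tested on simulated data. Alternatives were other scalings, normexp with offset 50 (limma 3.58.1; run on the median signal of each spot, since the files hold no mean signal), the deposited table, the median probe, a stricter filter, flagged spots kept and other host definitions. For 269 probes with repeated spots the log2 difference had a median SD of 0.173 within a probe. The number of arrays limits the precision.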

Additional observations from a re-analysis of the deposited data

How the results depend on the processing

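No paired analysis was possible because each group has 1 array, and no replicate could be left out. Most recomputed values kept their direction, but the side of 2-fold was less stable. Many named genes past 2-fold fell short of it in at least 1 alternative. Among them were Terc, which passed in 4 of 9, and BC037032, in 5 of 9. Others, such as BC018473 and 4933405E24Rik, passed in all 9. Of 599 recomputed values for 68 named genes, 550 moved by less than their software error and 49 by more. In sign, 27 changed, but none past 2-fold reversed. Normexp moved 21 of the 68 genes by more than their error. Several alternatives could move little by design. The 2 other percentile scalings shift every gene by 1 amount, and the median probe and the stricter filter leave genes with 1 probe detected on both arrays unchanged. Normexp background correction, which compresses dim signals, left 9 members at least 2-fold lower. Scaling on the median of all probes, or on the 75th percentile of the probes that both arrays detected, put 1 snoRNA host past 2-fold (2410006H16Rik and Snhg5, in that order). The median of the protein-coding snoRNA hosts was 0.041 after quantile normalization, 0.032 with the loess trend removed and 0.044 in the deposited table; the cause was not tested. The median of the snoRNA hosts ran from −0.19 to 0.05 and that of all members from −0.25 to −0.01, while the named genes' median moved to −0.19 under median scaling and to 0.05 under the both-array percentile. Named genes at 2-fold were 352 higher and 310 lower, but 293 and 418 under median scaling, 517 and 212 under the both-array percentile, and 151 and 186 with normexp.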

Other observations

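Detection differed between kinds of non-coding gene. Of 786 lncRNA genes with a non-coding probe 248 were detected (31.6%), as were 82 of 188 transcribed pseudogenes (43.6%) and 30 of 62 accessions without a match in the RefSeq table (48.4%). Of the non-coding probes 36.5% were above background on at least 1 array, against 57.8% of all probes.

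Probes of 1 gene did not always give 1 answer. Of 51 members with several detected probes, 31 had all probes on 1 side of 0, and the median range between probes was 0.35. The widest was 9330133O14Rik, whose probes were at −0.96 and 0.92. Gm6981 had 5 probes from −0.17 to 0.98, and Prmt6 had 2, at −0.52 and 0.48. The unnamed accession past 2-fold in the lower direction had 3 probes from −1.01 to −0.04, with signals of 16891 and 12025 for the brightest. These genes were chosen after their values were seen.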
